A study of Mus musculus with 12 samples.

Results

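Livers of refed mice with and without the glucose transporter Glut2 were compared on 6 of the 12 arrays of the series, 3 from control mice and 3 from mice labelled LG2KO. The members were chosen by sample title: the control refed and the tamox refed arrays. LG2KO is not spelled out in the labels and is taken as a liver knockout of Glut2, the product of Slc2a2. All mice were of strain SV129XC57Bl/6, all arrays carry liver RNA, and the refed mice had been fasted and then fed again. Each array measured a pool of RNA from 3 animals, so that 3 pools a group stand for the replicates, and p-values measure the variation from pool to pool. The LG2KO arrays carry a tamoxifen label and the control arrays do not, so genotype and tamoxifen cannot be told apart. Neither the Cre driver nor the age or sex of the mice is given in the labels. The 6 fasted arrays, 3 a genotype, enter below through the shared estimate of the spread and where the refed difference is set against the fasted one.

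Glut2 is the main glucose transporter of hepatocytes. It lets glucose cross the cell membrane in both directions, so that liver glucose follows blood glucose after a meal. Inside the hepatocyte, glucose metabolites activate the transcription factor ChREBP, while insulin raises the transcription factor SREBP-1c, encoded by Srebf1, and together these switch on glycolysis and fatty acid synthesis after feeding. The related factor SREBP-2, encoded by Srebf2, drives cholesterol synthesis when sterols in the endoplasmic reticulum are low.

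Values are RMA expression levels on the log2 scale. A difference is the mean of the LG2KO refed arrays minus the mean of the control refed arrays, given ± its standard error from limma, and it passes where the Benjamini-Hochberg adjusted p over all 18194 genes lies below 0.05. Array values are listed in the order of replicates 1, 2 and 3. The array of control refed replicate 1 stood apart: it correlated with the other refed arrays at 0.982 to 0.987, whereas those correlated with each other at 0.993 to 0.996. Over the 1467 genes that responded to refeeding in controls when it was left out, its median position was 66.7% of the way from the fasted control mean to the mean of the other refed controls (quartiles 32.5% and 102%). Those other controls also served to choose the genes, which by itself draws a left-out array short of their mean. They were not scored in this way themselves, so the position does not show that this array was less refed. Each comparison was also computed without control refed replicate 1. Hepatocyte markers averaged 13.41 to 13.59 on the control refed arrays and 13.40 to 13.45 on the LG2KO refed arrays, with Alb at 14.32, 14.32 and 14.33 against 14.25, 14.14 and 14.29. In none of the 10 marker lists of hepatocytes and other cell types did a member pass. In bulk liver RNA, fewer cells of a type and less RNA per cell cannot be told apart.

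Slc2a2 read 10.67, 11.30 and 10.90 in refed controls and 3.79, 3.64 and 3.80 in LG2KO. The LG2KO arrays lay close together and far below every control array, at the 28.7 to 31.6 percentile of their arrays against the 96.2 to 97.4 percentile in controls. The transcript fell by 7.21 ± 0.25 (limma, adjusted p = 2.26e-08), and it fell by 7.36 without control refed replicate 1. Without detection calls the size of the fall may be a lower bound. A single probe set reads the gene, and its position with respect to the deletion is not known from the labels. Of the 12 measured hexose transporters Slc2a2 was the 1 that passed. The ubiquitous glucose transporter Slc2a1 (Glut1) read 7.84, 8.10 and 7.99 in controls and 8.32, 8.56 and 8.22 in LG2KO, a difference of 0.39 ± 0.11 with an adjusted p of 0.239. Slc2a4, the insulin-regulated transporter of muscle and fat, had a difference of 0.41 ± 0.16 (adjusted p = 0.445). Neither passed, and neither passed without control refed replicate 1, where the differences were 0.32 and 0.31.

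In total 69 genes passed in refed liver, which is 0.379% of the genes tested, and 1661 had an unadjusted p below 0.05. Of these 69, 53 were higher in LG2KO (0.291% of genes) and 16 were lower (0.0879%). The rises were mostly small, with a median of 0.72, and the falls larger, with a median of -1.19. A difference of at least 1 on the log2 scale was seen for 12 of the 53 and 12 of the 16. In all 69 genes the groups of arrays did not overlap, as was the case for 15.4% of all genes. That share also applies below wherever genes that did not pass are said to have groups that did not overlap. Without control refed replicate 1, 35 genes passed (0.192%), 20 higher (0.11%) and 15 lower (0.0824%), and 23 genes passed in both fits. All 69 genes kept their sign without that array, and in 0 of them did the fold move by more than 1.5 times. The 46 that missed without it had adjusted p-values of 0.0514 to 0.134 there. The calls also leaned on other arrays: 6 of the 69 passed in each of the 6 fits that left out 1 refed array, namely Slc2a2, Cyp2b9, Srebf1, Pcx, Idi1 and the gene with the clone name 1700067K01Rik, while 20 passed in 0 of them. Cdkn1a, Cyp2b10, Cyp51, Ces2e, Asl and Atf4 were among those 20. The smallest count, 8 genes, came without LG2KO refed replicate 3. Each gene was read on its brightest probe set, and 38 of the 69 have further ones, 83 in all, of which 73 differed in the same direction. In 8 genes at least 1 further probe set differed the other way, and all further probe sets of those genes are given with the gene. With the mean of all probe sets of a gene 48 genes passed, 43 of them among the 69. The other 26 of the 69 did not pass on that mean, and only some of them are marked below.

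**Figure D1:**
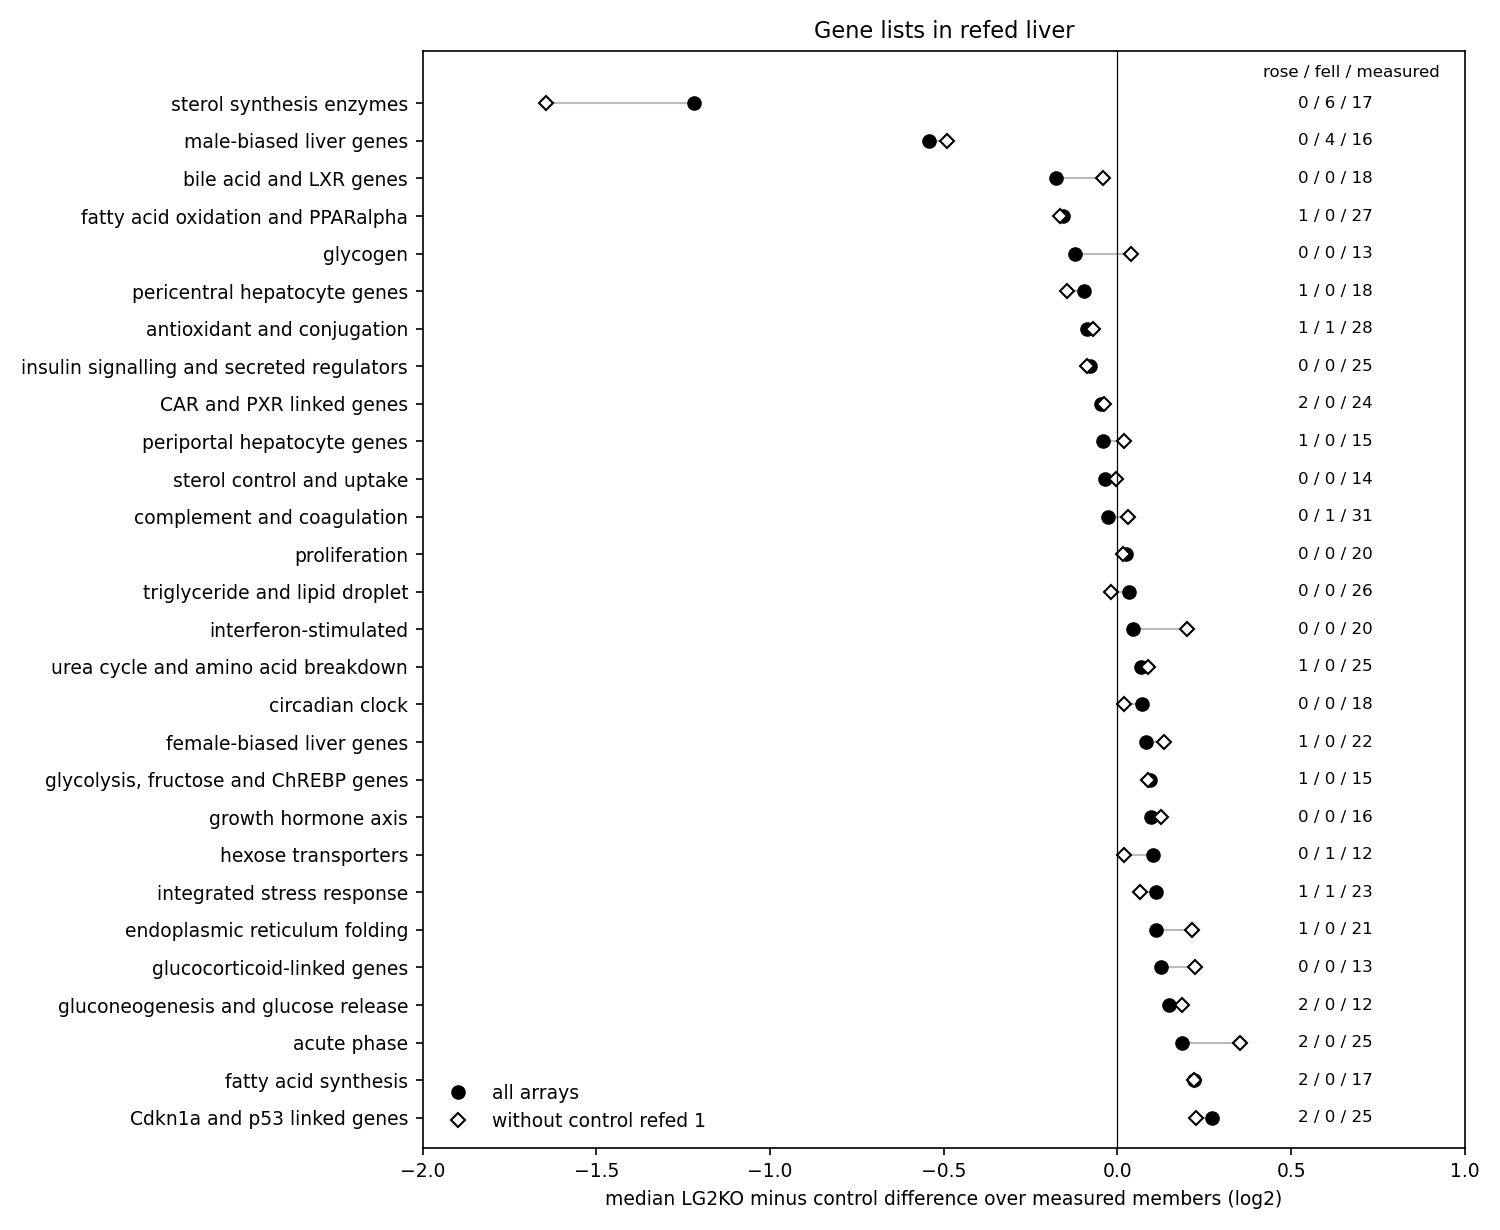
Median difference between LG2KO and control refed liver (x axis, log2) over the measured members of each of 28 gene lists (y axis), with all arrays (filled circles) and without control refed replicate 1 (open diamonds), and the numbers of members that rose, fell and were measured at the right. The sterol synthesis enzymes lie lowest, at -1.22 and -1.64, the male-biased liver genes next, at -0.54 and -0.49, and the other 26 lists between -0.18 and 0.35.

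The gene lists used here and below were chosen with earlier results of these data known, so their counts and medians are descriptions. The enzymes of cholesterol synthesis were lower in refed LG2KO liver. Of 17 measured enzymes 6 fell, 0 rose, and all 17 differences were negative, as were 44.1% of those of all genes. The median of the list was -1.22, against 0.02 over all genes. Without control refed replicate 1 the median was -1.64 and 10 enzymes fell: Hmgcs1, Idi1, Fdft1 and Msmo1 passed in both fits, Cyp51 and Hsd17b7 with all arrays, and Mvk, Pmvk, Mvd, Lss, Nsdhl and Dhcr7 without that array. The count of enzymes that fell was 1 to 3 when any other refed array was left out.

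Hmgcs1, which joins acetyl units into HMG-CoA at the entry of the pathway, read 11.06, 11.27 and 11.03 in refed controls and 8.55, 8.56 and 9.39 in LG2KO. All LG2KO pools lay at least 1 unit below all control pools, with replicate 3 nearest to them. The difference was -2.29 ± 0.30, a fall of 4.88-fold with an adjusted p of 0.0103, and it was -2.32 without control refed replicate 1. Idi1, which makes the isoprenoid units that later enzymes join, read 10.30, 9.66 and 9.18 in controls and 6.61, 7.19 and 7.26 in LG2KO. It had the largest fall of the list, 2.69 ± 0.32 or 6.45-fold (adjusted p = 0.00516), and in this gene control refed replicate 1 was the highest control, so that the difference without it was -2.40.

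Between these, the 3 mevalonate enzymes showed how control refed replicate 1 enters. Mvk, mevalonate kinase, read 8.19, 9.90 and 9.66 in refed controls and 7.89, 7.86 and 8.35 in LG2KO. The first control pool lay among the LG2KO pools and the other two more than 1 unit above them. The difference was -1.22 ± 0.33 with an adjusted p of 0.204, and without that array it fell by 1.75 (adjusted p = 0.000939, the smallest for Mvk over the fits that leave out a refed array). Pmvk and Mvd, the phosphomevalonate kinase and the decarboxylase that follow, were at -0.95 and -1.11 with all arrays and fell by 1.32 and 1.56 without it. In the list as a whole 12 of 17 enzymes were lower on control refed replicate 1 than on both other controls, and 7 of these lay at least 1 unit below the mean of those controls. The median gap to that mean over the 17 was -0.74. The mean level of the list was 10.42, 11.13 and 10.91 on the control refed arrays and 9.43, 9.28 and 9.85 on the LG2KO refed arrays, so the groups did not overlap.

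Farther along the pathway Fdps, farnesyl diphosphate synthase, was at -1.41 with all arrays and -1.77 without control refed replicate 1, and it did not pass either way. Fdft1, squalene synthase and the first enzyme committed to sterols, read 11.81, 12.69 and 12.50 in controls and 11.24, 10.92 and 11.53 in LG2KO. It fell by 1.11 ± 0.21 (adjusted p = 0.0477), and by 1.37 without control refed replicate 1. A further bright probe set of Fdft1 differed by -1.25, and a pair of dim ones by -0.04 and 0.19. With the mean of all of them Fdft1 was at -0.55 and did not pass (adjusted p = 0.182). The epoxidase Sqle was at -1.52 and -1.77 in these fits and passed in neither, although its groups did not overlap. The cyclase Lss, which closes the sterol rings, was at -1.24 and fell by 1.64 without that array.

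Among the enzymes that trim lanosterol to cholesterol, the demethylase Cyp51 read 9.55, 9.99 and 9.86 in controls and 8.08, 7.73 and 8.26 in LG2KO. It fell by 1.78 ± 0.31, or 3.42-fold (adjusted p = 0.0405), and it missed whenever a refed array was left out. The oxidase Msmo1 read 11.76, 12.02 and 11.73 in controls and 9.92, 9.77 and 9.88 in LG2KO. Its pools were tight in each group and about 2 units apart, and it fell by 1.98 ± 0.26, or 3.95-fold (adjusted p = 0.0108). Hsd17b7, the ketoreductase, read 9.81, 9.66 and 9.40 against 8.59, 8.36 and 8.34 and fell by 1.19 ± 0.22. Nsdhl, its partner in demethylation, was at -1.55 and fell by 1.93 without control refed replicate 1, and the last reductase Dhcr7 was at -0.94 and fell by 1.41 without it. The desaturase Sc5d was at -0.79 with groups that did not overlap, the reductase Tm7sf2 at -0.33 and the isomerase Ebp at -0.05, and these passed in neither fit. In 9 of the 17 enzymes all LG2KO refed arrays lay below all control refed arrays, as in 5.19% of all genes, and in 16 of 17 all lay below control refed replicates 2 and 3, as in 13.5% of all genes.

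**Figure D2:**
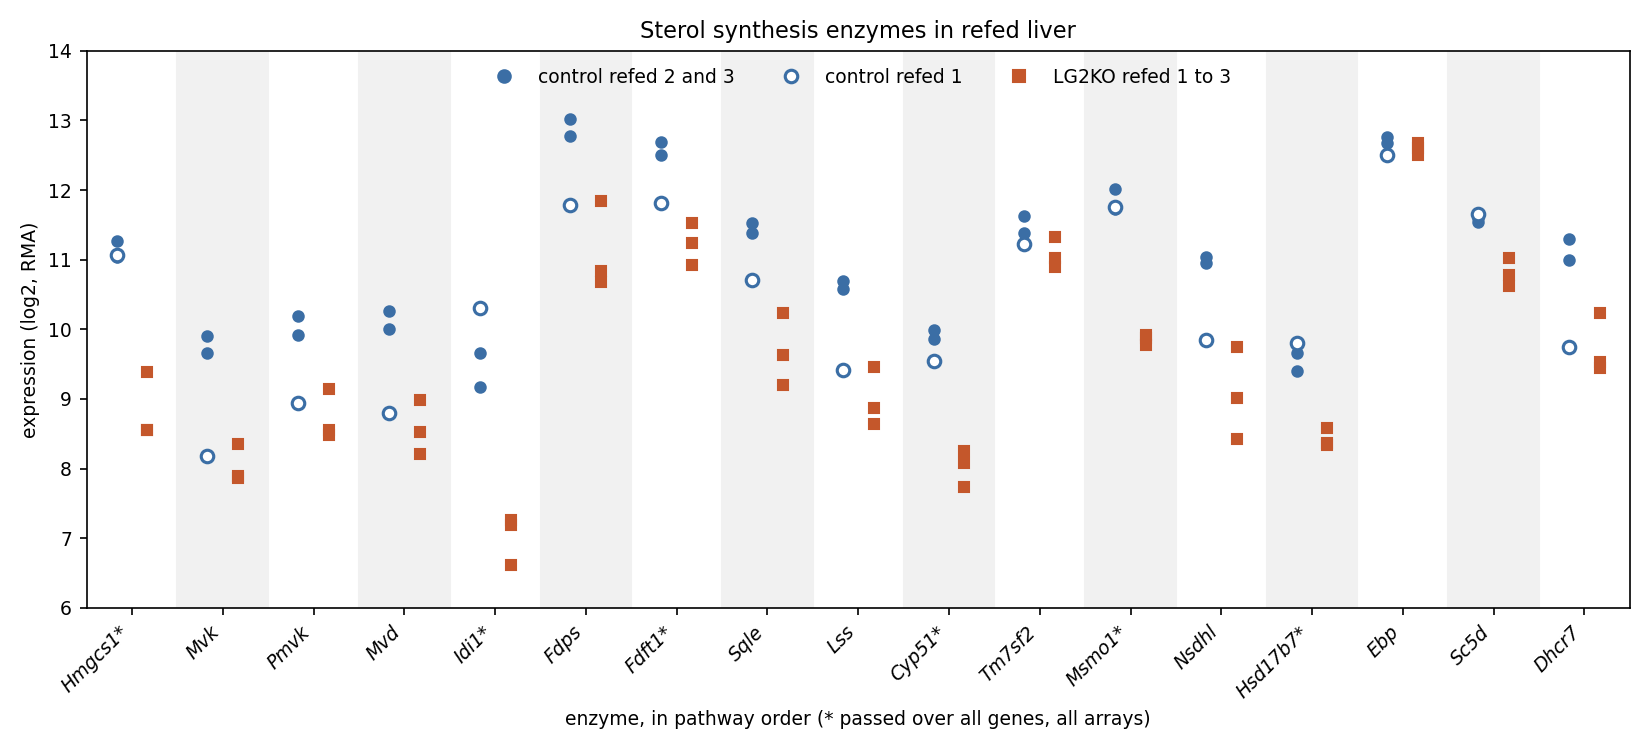
Expression (y axis, log2) of the 17 measured sterol synthesis enzymes in pathway order (x axis) on each refed array: control replicates 2 and 3 (filled circles), control replicate 1 (open circles) and LG2KO replicates (squares). For Mvk, Pmvk, Mvd, Lss, Nsdhl and Dhcr7 control replicate 1 lies at or near the LG2KO arrays, whereas for Hmgcs1, Idi1, Msmo1 and Hsd17b7 all 3 controls lie above them.

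The promoters of the sterol enzymes were searched on both strands of windows of 300 bases (250 before to 50 after the start, RefSeq, GRCm38.p6) for TCACNCCAC, a sterol regulatory element motif that SREBP factors bind, and for CACGTG, the E-box core found in the elements of ChREBP and many other factors. Of the 17 enzymes 14 had a window, and TCACNCCAC was found in that of 1, Hmgcs1, against 1.24% of all 32851 windows. CACGTG was found for Dhcr7, Hsd17b7 and Sc5d, against 7.15% of all windows. Among the 30 genes with the smallest adjusted p, 24 had a window, TCACNCCAC was found for Ggt6 and Hmgcs1, and CACGTG for Khk and Pcx. A match is a description of the letters and not a site in use, and no match says only that these letters are not in this window. The 250 bases before the start are shown for the entry enzyme Hmgcs1 and for Idi1, the enzyme with the largest fall, and for the fructose kinase Khk as a rising gene with an E-box. They are read 5′ to 3′ on the + strand, with the motif in capitals: at positions -137 to -129 in Hmgcs1 (chr13:119690101-119690350), at -71 to -66 in Khk (chr5:30921309-30921558), and with neither motif in Idi1 (chr13:8885356-8885605).
Hmgcs1: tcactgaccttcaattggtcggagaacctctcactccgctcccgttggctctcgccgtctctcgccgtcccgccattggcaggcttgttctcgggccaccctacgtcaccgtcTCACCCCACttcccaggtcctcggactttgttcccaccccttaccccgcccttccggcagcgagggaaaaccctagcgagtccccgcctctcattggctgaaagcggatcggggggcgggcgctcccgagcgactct
Idi1: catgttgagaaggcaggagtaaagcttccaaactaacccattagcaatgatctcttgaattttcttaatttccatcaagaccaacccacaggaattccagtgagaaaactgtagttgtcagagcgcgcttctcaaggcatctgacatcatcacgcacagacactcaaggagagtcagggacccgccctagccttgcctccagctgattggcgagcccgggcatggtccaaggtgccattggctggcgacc
Khk: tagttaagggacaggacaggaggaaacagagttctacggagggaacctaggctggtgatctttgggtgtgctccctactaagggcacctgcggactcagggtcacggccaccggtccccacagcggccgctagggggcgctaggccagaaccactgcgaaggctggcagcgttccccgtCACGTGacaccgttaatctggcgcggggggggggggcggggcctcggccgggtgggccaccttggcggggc

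Genes that sense and move sterols did not pass with all arrays. Of 14 measured members of this list 0 passed, 7 were positive and 7 negative, and the median was -0.04. Srebf2 itself read 8.55, 8.92 and 9.03 in controls and 8.71, 8.55 and 8.85 in LG2KO, with overlapping groups and a difference of -0.14 ± 0.13 (adjusted p = 0.813). Insig1, which holds SREBP in the endoplasmic reticulum and is itself an SREBP target, was at -0.61 ± 0.23 (adjusted p = 0.433), and Stard4, a sterol carrier, at -0.63. Tmem97, a regulator of the cholesterol transporter NPC1, was at -0.65 and fell by 0.90 without control refed replicate 1. The HDL receptor Scarb1 was at 0.34 (adjusted p = 0.081). Erg28, which tethers sterol enzymes, and Cyb5b, an outer mitochondrial cytochrome b5, lie outside the lists, were at -0.59 and -0.29, and fell by 0.83 and 0.57 without that array. In the list of 18 bile acid and LXR genes 0 passed: the rate-limiting bile acid enzyme Cyp7a1 was at -0.33 ± 0.55 with all arrays and at 0.29 without control refed replicate 1, Cyp8b1 at -0.14 and -0.35, and the sterol exporter Abca1 at -0.67 and -0.56.

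Srebf1 and genes of fatty acid synthesis were higher in part. Srebf1 read 12.25, 11.89 and 11.92 in refed controls and 12.84, 13.06 and 12.84 in LG2KO. It rose by 0.89 ± 0.10, or 1.86-fold (adjusted p = 0.00499), passed in all 6 fits that left out a refed array, and rose by 1.01 without control refed replicate 1, the highest control. Pnpla3, a lipid droplet protein and SREBP-1c target, read 5.36, 5.42 and 5.67 in controls and 6.49, 6.27 and 6.78 in LG2KO and rose by 1.03 ± 0.15, or 2.05-fold (adjusted p = 0.0167), passing without control refed replicate 1 as well. These were 2 of the 17 fatty acid synthesis genes. The desaturase Scd1 read 12.47, 11.93 and 11.74 in controls and 12.51, 12.37 and 12.64 in LG2KO. Its groups overlapped through control refed replicate 1, and it was at 0.46 with all arrays and rose by 0.68 without that array (adjusted p = 0.0398).

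The other 14 genes of this list passed in neither fit. The median of the list was 0.22 in both fits, and 11 of 17 differences were positive with all arrays, against 55.9% over all genes. Fasn, fatty acid synthase, read 11.28, 11.95 and 11.65 in controls and 11.77, 11.79 and 12.12 in LG2KO, with overlapping groups and a difference of 0.27 ± 0.16 (adjusted p = 0.661). Acacb, the mitochondrial acetyl-CoA carboxylase, was at 0.60 ± 0.18 and the lipogenic regulator Thrsp at 0.43 ± 0.22, both with groups that did not overlap. In the list of 26 triglyceride and lipid droplet genes 0 passed and the median was 0.03. Cds2, which makes CDP-diacylglycerol, and the lipid phosphatase Plpp5 belong to no list and were chosen after their values were seen. Cds2 rose by 0.47 ± 0.09 and Plpp5 by 0.70 ± 0.13. Plpp5 also passed without control refed replicate 1 and Cds2 did not. With the mean of all its probe sets Cds2 was at 0.31 and did not pass (adjusted p = 0.222).

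In the list of 27 genes of fatty acid oxidation and PPARalpha, 22 were negative, with a median of -0.16 in both fits, and 1 passed. That gene was Eci3, an isomerase for unsaturated fatty acids, which read 3.28, 3.45 and 3.72 in controls and 6.55, 4.50 and 5.62 in LG2KO. Its LG2KO pools spread over 2 units yet all lay above the controls, and it rose by 2.08 ± 0.37 (adjusted p = 0.0437), without passing when control refed replicate 1 was left out. Its control arrays read no higher than the highest Slc2a2 value on the LG2KO arrays, and without detection calls the size of the rise may be a lower bound. The peroxisomal enzyme Ehhadh was at -0.97 ± 0.20 (adjusted p = 0.0701), the thioesterase Acot1 at -0.53 and its relative Acot3 at 1.46 ± 0.42, none of which passed.

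Few genes of glucose and fructose metabolism passed, and their rises were small. Khk, ketohexokinase, which starts fructose breakdown, read 12.01, 12.18 and 12.16 in controls and 12.60, 12.80 and 12.78 in LG2KO. It rose by 0.61 ± 0.08, or 1.52-fold (adjusted p = 0.0128), with and without control refed replicate 1. It was the 1 of 15 glycolysis, fructose and ChREBP genes that passed. The list had a median of 0.09. Pklr, liver pyruvate kinase and the classical ChREBP target, read 9.57, 9.92 and 9.85 in refed controls and 9.83, 9.97 and 10.05 in refed LG2KO. The groups overlapped, and the difference was 0.17 ± 0.12 (adjusted p = 0.714), or 0.07 without control refed replicate 1. Tkfc, a later kinase of fructose breakdown, was at 0.52 ± 0.13 and the ChREBP target Arrdc4 at 0.58 ± 0.13 (adjusted p = 0.0946), both with groups that did not overlap. Txnip, another glucose-induced gene, was at 0.04 ± 0.13.

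In gluconeogenesis and glucose release 2 of 12 genes rose, both of which also passed without control refed replicate 1. Pcx, pyruvate carboxylase, the entry enzyme of gluconeogenesis, read 12.09, 12.34 and 12.25 in controls and 12.75, 12.90 and 12.81 in LG2KO. It rose by 0.60 ± 0.07, or 1.51-fold (adjusted p = 0.00499), and passed in all 6 fits that left out a refed array. Fbp1, fructose bisphosphatase, read 13.62, 13.62 and 13.61 in controls and 13.88, 13.81 and 13.80 in LG2KO, a rise of 0.22 ± 0.04 that was small and yet larger than the spread between pools (adjusted p = 0.0355). G6pc, the catalytic subunit of glucose-6-phosphatase, was at 0.37 ± 0.15 with all arrays and 0.57 without control refed replicate 1 (adjusted p = 0.47 and 0.0752), and Pck1, the cytosolic PEP carboxykinase, at 0.09 ± 0.16. In glycogen metabolism 0 of 13 genes passed. Ppp1r3g, a glycogen-targeting phosphatase subunit, read 4.33, 4.27 and 4.28 in controls and 5.10, 5.27 and 5.48 in LG2KO, with an adjusted p of 0.0946 and groups that did not overlap. Pygl, liver glycogen phosphorylase, was at 0.37.

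Among genes linked to the xenobiotic receptors CAR and PXR, Cyp2b9 and Cyp2b10 rose. Cyp2b9 read 4.41, 3.97 and 5.81 in refed controls and 11.45, 9.30 and 11.20 in LG2KO. It had the largest rise of all genes that passed, 5.92 ± 0.63 (adjusted p = 0.00366), and passed in all 6 fits that left out a refed array. Its lowest control array lay close to the level of Slc2a2 in LG2KO and the other controls lay higher. Without detection calls the size of this rise too may be a lower bound. Cyp2b10 read 5.15 to 5.65 in controls and 7.05, 6.88 and 7.61 in LG2KO and rose by 1.78 ± 0.32, or 3.43-fold (adjusted p = 0.0428), with 1.65 and no call without control refed replicate 1. It also missed when any other refed array was left out. With the mean of all its probe sets Cyp2b10 was at 1.39 and did not pass (adjusted p = 0.118). The Cyp2b genes are close relatives, and reading of one transcript by the other's probes was not tested. Cyp2b13, a further relative, read 4.65, 4.74 and 4.76 in controls and 6.72, 4.94 and 5.73 in LG2KO, at 1.08 ± 0.36 (adjusted p = 0.32). These were 2 of 24 measured genes of the list that rose, with 16 of 24 negative and a median of -0.05. The receptor gene Nr1i3 (CAR) was at -0.17 ± 0.09. Ces2e, a carboxylesterase outside the list, read 9.25, 9.36 and 9.49 in controls and 10.20, 10.13 and 10.08 in LG2KO and rose by 0.77 ± 0.12 (adjusted p = 0.0297), with 0.71 and no call without control refed replicate 1.

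Male-biased liver genes, which follow the pulsed pattern of growth hormone in male mice, were lower in LG2KO. Of 16 measured members 4 fell, 15 were negative, and the median was -0.54, or -0.49 without control refed replicate 1, where 0 passed. Hsd3b5, a steroid reductase, read 12.15, 11.84 and 11.66 in controls and 10.01, 9.48 and 10.60 in LG2KO and fell by 1.85 ± 0.34, or 3.61-fold (adjusted p = 0.0456). Cyp4a12a, a fatty acid hydroxylase, read 12.61, 12.39 and 12.32 in controls and 10.45, 11.71 and 10.71 in LG2KO and fell by 1.49 ± 0.24 (adjusted p = 0.0325). In both genes 1 LG2KO pool lay nearer to the controls than the others, replicate 3 for Hsd3b5 and replicate 2 for Cyp4a12a. C6, a component of the complement membrane attack complex, read 10.75, 10.85 and 10.24 against 9.15, 9.71 and 9.65 and fell by 1.11 ± 0.17, and Susd4, a complement regulator, fell by 0.71 ± 0.13. The differences of these 4 genes without control refed replicate 1 were -1.72, -1.40, -1.04 and -0.73. Elovl3, a fatty acid elongase, read 8.27, 9.24 and 8.58 in controls and 5.26, 7.63 and 9.07 in LG2KO, so that its difference of -1.37 ± 0.70 did not separate the groups.

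The 22 measured female-biased genes had a median of 0.08, and Cyp2b9 was the 1 that passed. Cyp17a1, a steroid hydroxylase, read 7.75, 9.21 and 8.92 in controls and 11.09, 10.47 and 9.85 in LG2KO, at 1.84 ± 0.38 with an adjusted p of 0.0794 and groups that did not overlap. In the growth hormone axis 0 of 16 genes passed.

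Cdkn1a and Phlda3, linked to growth arrest, rose. Cdkn1a, the p21 inhibitor of the cell cycle, read 6.50, 7.03 and 6.51 in controls and 8.40, 8.30 and 8.10 in LG2KO. All LG2KO pools lay more than 1 unit above all controls, and it rose by 1.59 ± 0.27, or 3.01-fold (adjusted p = 0.0369). It missed in every fit that left out 1 refed array, control refed replicate 1 included. Phlda3, a p53 target that restrains Akt, read 6.48, 6.49 and 6.59 in controls and 7.56, 7.47 and 7.36 in LG2KO and rose by 0.94 ± 0.12, or 1.92-fold (adjusted p = 0.0106), with a call in both fits. These were 2 of the 25 measured Cdkn1a and p53 linked genes. Of the 25, 19 were positive and the median was 0.27, against 0.02 over all genes. Gadd45g was at 1.29 ± 0.30 and Ccnd1, cyclin D1, at 0.94 ± 0.22, with groups that did not overlap and adjusted p-values of 0.122 and 0.12. In the proliferation list 0 of 20 genes passed and the median was 0.02. Spry4, an inhibitor of receptor tyrosine kinase signalling outside the lists, read 5.44, 5.26 and 5.31 in controls and 6.10, 6.10 and 6.06 in LG2KO, and rose by 0.75 ± 0.10 in a pattern of tight pools (adjusted p = 0.0149), with and without control refed replicate 1. Its other probe sets, all dimmer, differed by less, at 0.09, 0.08 and 0.43.

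Genes of the secretory pathway rose individually. Edem1, which passes misfolded glycoproteins from the endoplasmic reticulum to degradation, read 10.33, 10.32 and 10.24 in controls and 10.94, 10.89 and 10.89 in LG2KO. It rose by 0.61 ± 0.08, or 1.52-fold (adjusted p = 0.0101), with and without control refed replicate 1, and was the 1 of 21 endoplasmic reticulum folding genes that passed. That list had 16 positive members and a median of 0.11. Derl3, of the retrotranslocation channel, was at 1.52 ± 0.29 (adjusted p = 0.0541). The chaperone-associated genes Creld2 and Sdf2l1 were at 0.76 and 0.60 with groups that did not overlap. Other genes with known roles in glycoprotein handling were picked after their values were seen and form no list here. Edem2, a relative of Edem1, rose by 0.61 ± 0.09, Sec61a1, of the channel through which proteins enter the endoplasmic reticulum, by 0.32 ± 0.06, and Gmppa, a subunit linked to GDP-mannose supply, by 0.57 ± 0.10. Nans, the sialic acid synthase, rose by 0.72 ± 0.11, the sialyltransferase St6galnac4 by 1.02 ± 0.16 and the galactosyltransferase B4galt5 by 0.56 ± 0.11. Without control refed replicate 1, Edem2 and Nans passed and the other 4 did not. Edem2, Sec61a1 and Gmppa each have a dimmer probe set with a difference of the opposite sign, of -0.11, -0.27 and -0.07. The other probe sets of Sec61a1 differed by 0.26 to 0.40 and those of Gmppa by 0.37 to 0.56. With the mean of all probe sets Edem2, Sec61a1 and Gmppa did not pass, nor did Edem1, at 0.43 (adjusted p = 0.396). B4galt5 did not pass on that mean either, at 0.36 (adjusted p = 0.195).

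In the integrated stress response list 1 of 23 genes rose and 1 fell. Trib3, a pseudokinase induced by stress that binds Akt, read 6.88, 6.79 and 6.69 in controls and 7.71, 7.33 and 7.45 in LG2KO and rose by 0.71 ± 0.13 (adjusted p = 0.0405). Atf4, the transcription factor of this response, fell by 0.45 ± 0.09 at the transcript level on its brightest probe set (adjusted p = 0.0477). Its other probe sets differed by -0.09 and 0.11, and with the mean of all of them Atf4 was at -0.15 and did not pass (adjusted p = 0.767). Both Trib3 and Atf4 missed without control refed replicate 1, at 0.76 and -0.48. Chac1, a glutathione-degrading enzyme, was at 1.08 ± 0.30 and Ddit4, an inhibitor of mTORC1, also lay higher in LG2KO without passing. Both were highest on LG2KO refed replicate 3, at 7.83 and 9.21 against at most 6.87 and 8.07 on the other LG2KO arrays.

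**Figure D3:**
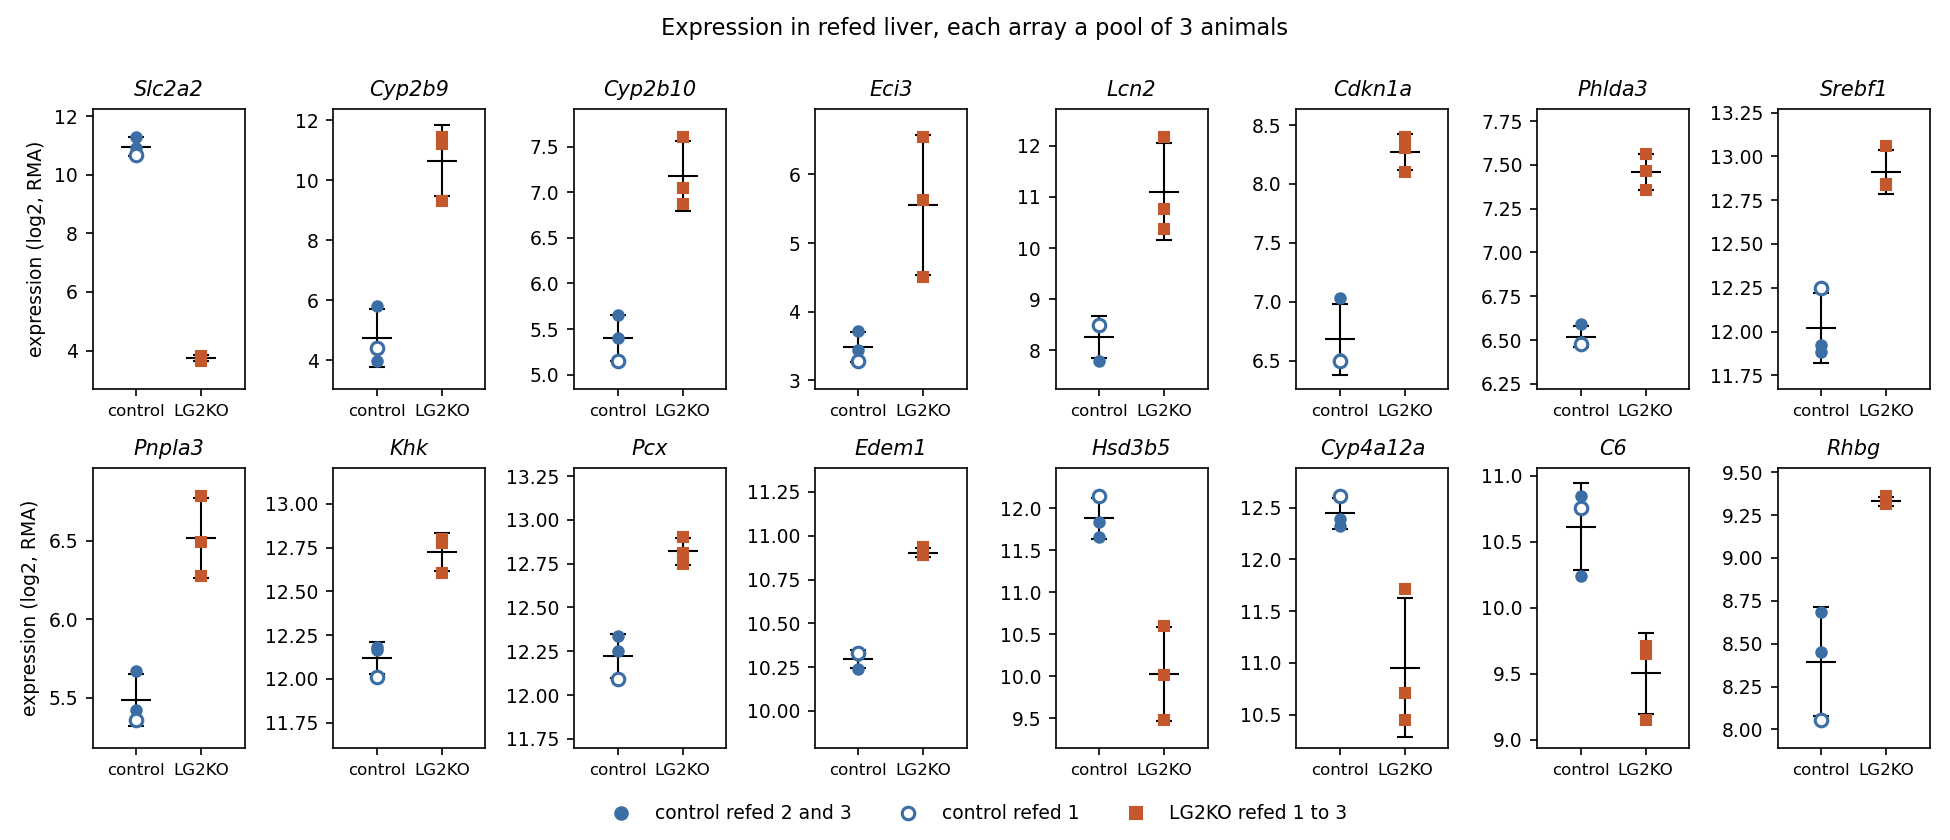
Expression (y axis, log2, own scale in each panel) of 16 genes that passed, on each refed array, with horizontal bars for the group mean and whiskers for 1 SD (n = 3 pools). Control replicate 1 is drawn open, and in each panel all LG2KO arrays lie to the same side of all control arrays.

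Lcn2 and Lbp rose among acute phase genes, whose levels were uneven across the LG2KO pools. Lcn2, lipocalin 2, an iron-trapping acute phase protein, read 8.49, 8.52 and 7.79 in refed controls and 10.37, 10.77 and 12.17 in LG2KO. All LG2KO pools lay above the controls with replicate 3 highest, and the gene rose by 2.84 ± 0.48, or 7.15-fold (adjusted p = 0.036), with 2.95 and no call without control refed replicate 1. Lbp, which presents bacterial lipopolysaccharide to its receptor, read 11.34, 11.30 and 11.25 against 11.74, 11.90 and 11.94 and rose by 0.57 ± 0.08 (adjusted p = 0.0167) in both fits. These were 2 of 25 measured acute phase genes, of which 19 were positive, with a median of 0.19, or 0.35 without control refed replicate 1. The serum amyloid gene Saa2 read 8.64, 9.80 and 8.18 in controls and 9.49, 10.49 and 12.40 in LG2KO, and the groups overlapped. Orm2, an orosomucoid, read 8.42, 8.84 and 7.81 in controls and 9.37, 9.16 and 11.12 in LG2KO, so that LG2KO replicate 3 again stood highest. Saa1, Saa2 and Orm2 were at 1.43, 1.92 and 1.53, and none passed.

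Neutrophil markers were highest on the same LG2KO pool. S100a8 read 5.91, 6.62 and 5.97 in controls and 6.15, 6.42 and 7.90 in LG2KO, and S100a9 read 5.99, 6.28 and 5.72 against 5.72, 6.35 and 7.55. Both were at most 0.66 higher on average and did not pass. The list of 16 measured lymphocyte and neutrophil markers averaged 5.23 to 5.32 on control refed arrays and up to 5.82 on LG2KO arrays, with 14 members positive, a median of 0.09 and 0 passing. On LG2KO refed replicates 1 and 2 the list averaged 5.29 and 5.23. The part of these cells in the Lcn2 and acute phase values was not tested. Macrophage markers averaged 8.88 to 9.07 in controls and 8.92 to 9.28 in LG2KO, and 0 of 14 passed. Of 31 complement and coagulation genes C6 was the 1 that passed, and of 20 interferon-stimulated genes 0 did.

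Amino acid, nitrogen and cofactor genes held further rises. Rhbg, an ammonia transporter of pericentral hepatocytes, read 8.05, 8.68 and 8.45 in controls and 9.36, 9.32 and 9.32 in LG2KO. The LG2KO pools were nearly equal, and it rose by 0.94 ± 0.14, or 1.91-fold (adjusted p = 0.021), with a call in both fits. It was the 1 of 18 pericentral hepatocyte genes that passed, whereas 16 of the 18 were negative, with a median of -0.10. Asl, argininosuccinate lyase of the urea cycle, rose by 0.40 ± 0.07, the 1 of 25 urea cycle and amino acid breakdown genes and of 15 periportal genes that passed. Aldh1l1, a folate enzyme, rose by 0.31 ± 0.05, Tcn2, the vitamin B12 carrier, by 0.34 ± 0.06 and Ggt6, of the gamma-glutamyl transferase family, by 0.81 ± 0.12. Of these genes Rhbg and Ggt6 also passed without control refed replicate 1. With the mean of all its probe sets Aldh1l1 was at 0.21 and did not pass (adjusted p = 0.555).

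Protection against oxidants and reactive lipids held members in both directions. Of 28 antioxidant and conjugation genes Sod2, the mitochondrial superoxide dismutase, rose by 0.25 ± 0.05 and Gsta4, the glutathione transferase for lipid aldehydes, fell by 0.80 ± 0.14, and 20 were negative with a median of -0.09. Of the other probe sets of Sod2 the brightest differed by 0.23, like the one tested, and a pair of dimmer ones by -0.25 and -0.22. The mean over its probe sets differed by 0.0016, so the direction of Sod2 depends on the probe set. Ephx2, the soluble epoxide hydrolase, fell by 0.34 ± 0.06. Slc39a10, a zinc importer outside the lists that was chosen after its values were seen, read 5.65, 5.23 and 4.80 in controls and 3.99, 4.10 and 4.47 in LG2KO and fell by 1.04 ± 0.20. The other probe set of Slc39a10, which was dimmer, differed by -0.15. The zinc-binding metallothionein Mt2 was at 1.40 ± 0.32 with groups that did not overlap (adjusted p = 0.121), and Mt1 at 1.11 ± 0.28. None of the 4 genes that passed here did so without control refed replicate 1, where their differences were 0.22, -0.86, -0.36 and -0.83.

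Some of the largest rises lay outside the lists, and the genes given here were chosen after their values were seen. Mmd2 read 7.33, 8.73 and 9.01 in controls and 10.70, 9.96 and 10.73 in LG2KO. It rose by 2.11 ± 0.39 with all arrays, and its value moved most of the 69 genes without control refed replicate 1, to 1.60. Dct, an enzyme of melanin synthesis, rose by 1.86 ± 0.31, Ptgds, prostaglandin D synthase, by 1.64 ± 0.24 and Kbtbd11 by 1.04 ± 0.18. The calcium-binding protein gene Cib3 fell by 1.18 ± 0.19. Of genes of the cell surface and matrix, Sulf2, which edits heparan sulphate, rose by 0.89 ± 0.15, Gpc1, a heparan sulphate proteoglycan, by 0.98 ± 0.18 and Bsg, a chaperone of lactate transporters, by 0.33 ± 0.06. Of the other probe sets of Sulf2 1 differed by 0.95 and 1, about as bright, by -0.25. Those of Kbtbd11, all dimmer than the one tested, differed by -0.08, -0.06 and 0.24. With the mean of all probe sets neither passed, Sulf2 at 0.53 and Kbtbd11 at 0.28 (adjusted p = 0.118 and 0.477). The linker histone gene H1f2 rose by 0.98 ± 0.16 in both fits. The cytoskeletal genes Tubb6, a tubulin, and Dynll1, a dynein light chain, rose by 0.81 ± 0.15 and 0.53 ± 0.10, and the mitochondrial genes Sco2, a copper chaperone, and Endog, a nuclease, by 0.68 ± 0.12 and 0.66 ± 0.12. With the mean of all its probe sets Dynll1 was at 0.49 and did not pass (adjusted p = 0.118). The other probe set of Tubb6, which was dimmer, differed by 0.06. Of the genes named in this paragraph H1f2 was the 1 that passed without control refed replicate 1.

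Secreted and insulin-related genes did not pass. Of 25 measured members of that list 0 passed, with a median of -0.08. The insulin receptor gene Insr read 8.13, 7.48 and 7.09 in controls and 6.73, 6.75 and 6.76 in LG2KO, at -0.82 ± 0.26 (adjusted p = 0.296), and the docking protein gene Irs2 read 5.91, 5.88 and 6.09 against 6.99, 6.95 and 6.30, at 0.79 ± 0.19 (adjusted p = 0.131). Both had groups that did not overlap, as did 15.4% of all genes. Enho, encoding the secreted peptide adropin, was at -0.79 ± 0.15 (adjusted p = 0.0594). In the lists of circadian clock genes and glucocorticoid-linked genes 0 of 18 and 0 of 13 passed.

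The same comparison of genotypes in fasted liver was set beside that in refed liver. In the fit with array weights LG2KO fasted replicate 3 had a weight of 0.255, near that of control refed replicate 1, 0.245. The other arrays had 0.949 to 2.66. Exocrine pancreas and skeletal muscle markers had median differences of -1.02 and -0.70 in fasted liver, against -0.05 and -0.01 in refed liver, and 0 of them passed. Whether the fasted pools held other tissue was not tested. In fasted liver 72 genes passed, 0.396% of those tested, and 21 genes passed in both states, which is 30.4% of the refed and 29.2% of the fasted calls, 17 higher and 4 lower in both. These included Slc2a2, Cyp2b9, Mmd2, Dct, Ptgds, Kbtbd11, Hsd3b5, C6, Srebf1, Pcx, Fbp1, Khk, Phlda3, Ces2e, Nans and St6galnac4. Cyp2b9 rose by 5.92 in refed and 5.89 in fasted liver, and Hsd3b5 fell by 1.85 and 2.36. Of the 69 genes that passed in refed liver 62 had the same sign in fasted liver and 59 had the larger difference in refed liver, the state in which they were chosen.

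The difference between the states was tested by the interaction of genotype and feeding, which 1 gene passed (0.0055%), while 861 had an unadjusted p below 0.05. That gene was Pklr, with a refed minus fasted difference of -1.75 and an adjusted p of 0.0024. It was higher in LG2KO in the fasted state, by 1.92, and at 0.17 after refeeding. Of the 69 genes that passed in refed liver 0 passed the interaction, and the smallest adjusted p among them was 0.174, for Lbp, so none of them was shown to differ between the states. The values lay apart for some: Idi1 was at -2.69 in refed and -0.55 in fasted liver (interaction adjusted p = 0.369), Hmgcs1 at -2.29 and -0.30 (0.369), Trib3 at 0.71 and -0.08 (0.409), Slc39a10 at -1.04 and 0.23 (0.409) and Edem1 at 0.61 and 0.13 (0.409). The sterol enzymes had a median of -0.47 in fasted liver, with 0 of 17 passing there, and 0 passed the interaction. Khk rose in both states, with an interaction of -0.39 (0.714), and Fasn, Tkfc and Thrsp, which did not pass in refed liver, rose by 1.27, 1.59 and 1.84 in fasted liver, with interaction adjusted p-values of 0.409, 0.174 and 0.407.

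**Figure D4:**
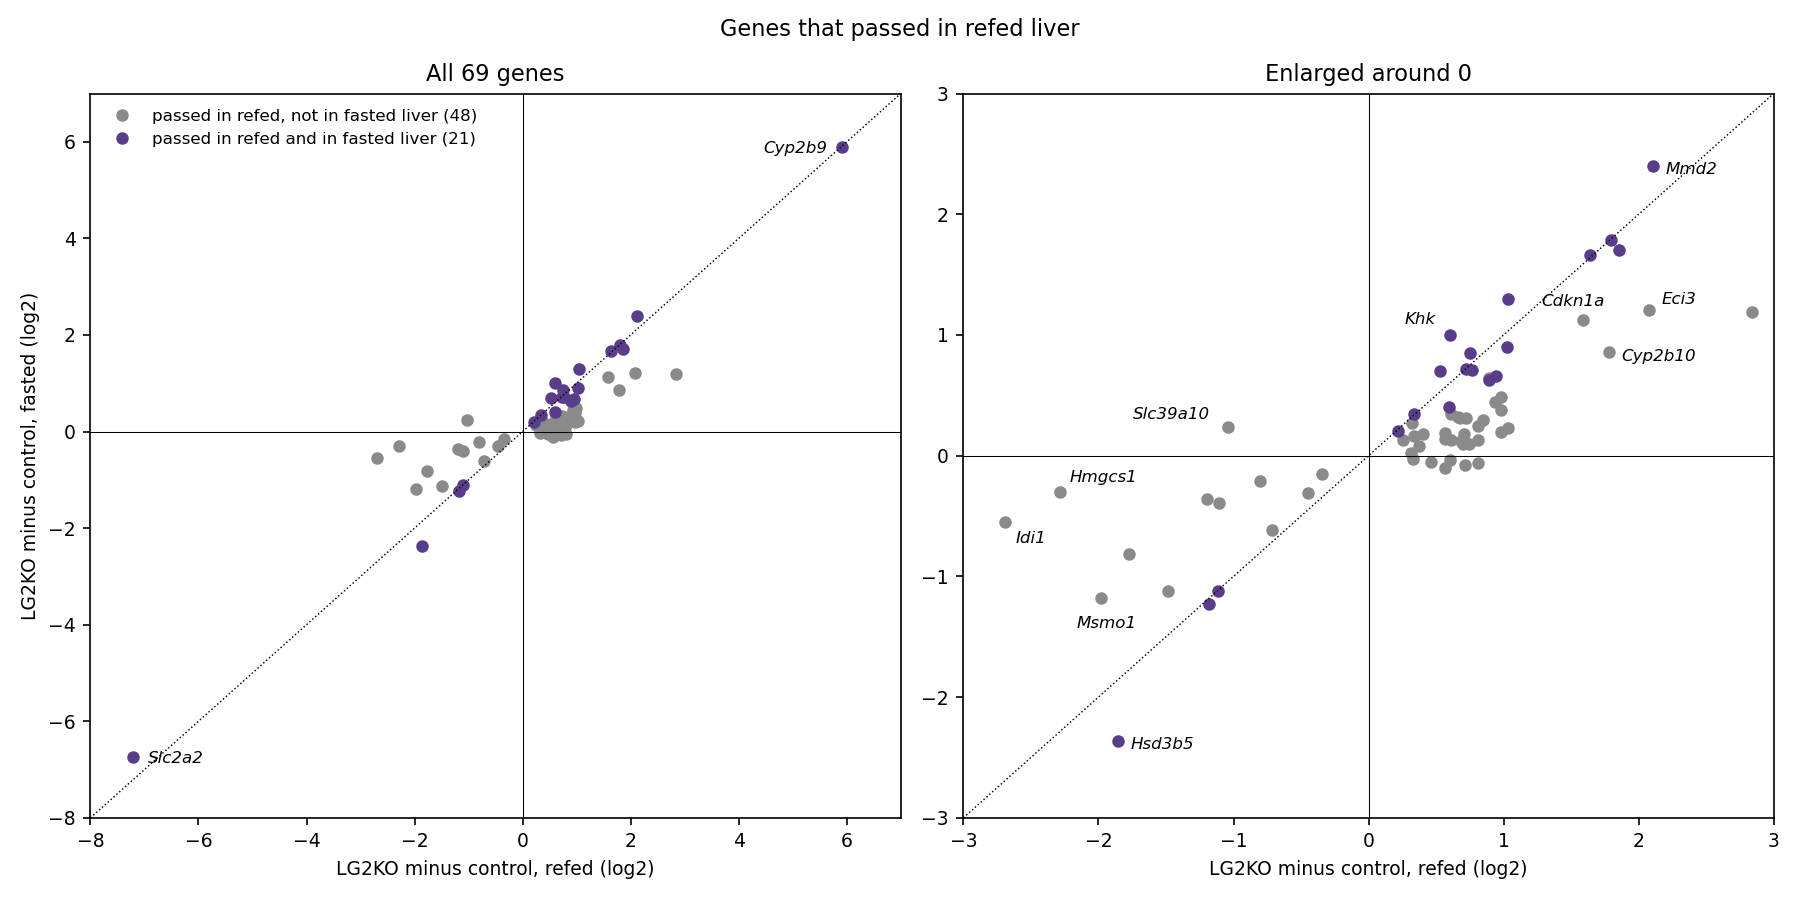
Difference between LG2KO and control liver in the refed state (x axis, log2) and in the fasted state (y axis, log2) for the 69 genes that passed in refed liver, over the whole range (left) and enlarged (right), with the 21 that also passed in fasted liver in purple and the dotted line where both differences are equal. Slc2a2 and Cyp2b9 lie near that line, whereas Idi1 and Hmgcs1 lie near a fasted difference of 0, at -0.55 and -0.30.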

How the data were processed

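Liver RNA of control and LG2KO mice was hybridised to an Affymetrix mouse array, and each array held a pool from 3 animals, per the labels' protocols. The authors deposited log2 values, 1 for each probe set and array, made with RMA per the submitters' processing notes. RMA gives all arrays a common distribution, so a shift shared by most genes would be removed. Detection calls were not used, and precision is limited by the number of arrays. The 45101 probe sets were tied to symbols through the platform annotation (34958 with 1 symbol, 932 with several, 9211 not listed), and each of 18194 genes was represented by its brightest probe set on average across the 12 arrays. Symbols were compared with RefSeq (GRCm38.p6), which changed 0.

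Tests used limma 3.58.1 under R 4.3.3 (lmFit, eBayes following intensity, two-sided), with 1 mean for each of 4 groups and 8 residual degrees of freedom, and adjusted by Benjamini-Hochberg over all genes. Alternatives were a prior without trend, robust estimation, array weights, genes above the median level, the mean of all probe sets, a replicate block, arrays centred on their medians, the refed arrays alone (4 residual degrees of freedom) and leaving out arrays. The fit was tested on simulated data, where it recovered 48.6% of 1.5-fold, 84.4% of 2-fold and 98.5% of 4-fold changes, with 10 false calls. Small differences that did not pass may thus have been missed. No simulated array stood apart, unlike in these data. The comparison, its 28 gene lists (523 of 579 members measured) and 10 marker lists (103 of 121) were chosen with earlier results of these data known. Genes named are Slc2a2, genes that passed, list members that passed or had the largest differences, every sterol enzyme, and a few chosen for their known roles in glucose and lipid metabolism. Genes with clone names were counted and, beyond 1, not named. Fasted LG2KO arrays were grouped by title and diet label, since their source text says otherwise. Plots were made in Python 3.11.15 with matplotlib 3.10.9.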

Additional observations from a re-analysis of the deposited data

Results flagged for a closer look

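Pklr differed between the feeding states in its response to the genotype, by a test of the interaction. Its levels were 9.57, 9.92 and 9.85 in refed controls and 9.83, 9.97 and 10.05 in refed LG2KO liver, a difference of 0.17, while the difference in fasted liver was 1.92. The refed minus fasted difference was -1.75 (limma, adjusted p = 0.0024). It passed under all 20 alternatives, with adjusted p-values of 5.05e-05 to 0.0171.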

How the results depend on the processing

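The 69 genes of the refed comparison became 180 with array weights, 41 when the prior ignored intensity, 43 with robust estimation and 15 with the refed arrays alone, and 69, 41, 43 and 13 of those were among the 69. Leaving out 1 refed array gave 8 to 46 genes: 35, 14 and 23 for control replicates 1, 2 and 3, and 22, 46 and 8 for LG2KO replicates 1, 2 and 3. Leaving out fasted arrays, chosen after seeing the data, gave 37, 38 and 23 without control and 30, 28 and 47 without LG2KO replicates 1, 2 and 3. The share of calls that were higher was 76.8%, but 63.3% with array weights, 53.3% with the refed arrays alone, 57.1% without control refed replicate 1 and 55.8% without it and LG2KO fasted replicate 3. Same-number deviations of the refed arrays correlated at -0.06, -0.15 and 0.19, too few values to tell whether replicate numbers pair the arrays. With the replicate block 53 genes passed, 45 of them among the 69. The interaction gave 1 gene, against 2 with robust estimation or without control refed replicate 3, 6 with the replicate block and 20 with array weights, and leaving out 1 array gave 1 to 2. The sign turned for values that passed in no fit. Cyp7a1 was at 0.12 with array weights and 0.29 without both arrays that stand apart. When 1 refed array was left out, Cyp7a1 ranged from -0.76 to 0.29, Ebp from -0.13 to 0.0042, Pck1 from -0.13 to 0.27 and Txnip from -0.047 to 0.14. All 69 genes kept their sign in every fit that held them. The cause of these shifts was not tested, beyond the fewer arrays or genes that a setting holds.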

Other observations

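The adipose hormone gene Adipoq, one of the markers of fat tissue, read 3.15, 3.34 and 3.42 in refed controls and 3.35, 6.81 and 4.16 in LG2KO, so that LG2KO refed replicate 2 stood high and the difference of 1.47 ± 0.63 did not pass. Adipose markers averaged 5.04 to 5.45 on control refed arrays and 5.30, 6.21 and 5.36 on LG2KO refed arrays. Socs3, which dampens cytokine signalling, read 7.76, 7.63 and 6.90 against 7.96, 9.68 and 8.94, with groups that did not overlap and a difference of 1.43 ± 0.50 (limma, adjusted p = 0.362).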
